A study of Mus musculus with 9 samples.

Results

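Unc13b, Rusc2, Tesk1, Cd72, Ccdc107, Tpm2, Tln1, Clta and Gne are protein-coding neighbors on mouse chromosome 4, and each had a lower mean in tumor-adjacent liver (TAL) of Scd2f/f;CC mice than in TAL of Scd2f/f mice. They are 9 of the 16755 genes of the authors' table, and they were chosen by those lower means and by their position, between the first base of Unc13b and the last base of Gne (chr4:43058953-44084177, mm10). The lower means are therefore a description of how the genes were picked and not a result. RNA was sequenced from 3 mice in each of 3 groups, all on the C57BL/6 background and all homozygous for a floxed Scd2, a gene for a stearoyl-CoA desaturase that makes monounsaturated fatty acids. Scd2f/f TAL came from mice given the liver carcinogen diethyl nitrosamine (DEN) at 10 mg/kg when 2 weeks old and then a Western alcohol diet (WAD) from 6 weeks of age, for 4 months by the sample labels. Scd2f/f;CC TAL came from mice with the same treatment that also carried Cre under the Col1a1 promoter, which is active in activated hepatic stellate cells (HSC) and portal fibroblasts. Control liver came from untreated Scd2f/f mice without Cre, whose age the labels do not give. No group carried Cre without treatment. The methods give a longer diet than the labels and name the tissue both TAL and NTL, without explaining NTL. The paper states that TAL held microscopic tumors but no evident visible ones, and that tumors were markedly diminished in Scd2f/f;CC mice. Tumor content of the samples was not analysed here.

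The values are the authors' means of a group's normalized read counts, given to 3 significant digits. Single mice were not analysed here, and therefore the depth of each library is unknown, no spread between mice can be printed, and no difference was tested. The counts are not stated to be per gene length, so levels are compared between groups within a gene and not between genes. In bulk liver, fewer cells of a type and less RNA per cell cannot be told apart. The targeted gene, Scd2, had a mean of 2.46 in control liver and 6.47 in Scd2f/f TAL, against 1.87 in Scd2f/f;CC TAL, and the mean of a whole gene does not isolate the floxed exon. All 6 hepatocyte markers, Alb, Apoa1, Ttr, Cps1, Cyp2e1 and Hnf4a, were abundant in every group, with summed means from 31919 to 36023.

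These genes have no common pathway. Unc13b, Rusc2 and Clta serve membrane traffic: UNC13 proteins prime vesicles for fusion, RUSC2 is an adaptor that binds Rab proteins, and CLTA is a light chain of the clathrin coat. Tesk1, Tpm2 and Tln1 serve the actin cytoskeleton: TESK1 phosphorylates the actin-severing protein cofilin, tropomyosin 2 lies along actin filaments, and talin 1 links integrins to actin and is needed for their activation. GNE makes the precursor of sialic acid, the sugar that caps many glycoproteins of hepatocytes and of plasma. CD72 is an inhibitory coreceptor of B cells, and Ccdc107 encodes a little-studied membrane protein with a coiled coil.

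What the genes share by construction is a place. In coordinates of mm10, Unc13b lies at chr4:43058953-43264871 on the plus strand, Rusc2 at chr4:43381979-43427088 on the plus strand and Tesk1 at chr4:43441939-43448064 on the plus strand. Cd72 lies at chr4:43446462-43454628 on the minus strand, Ccdc107 at chr4:43492900-43495921 on the plus strand and Tpm2 at chr4:43514711-43523765 on the minus strand. Tln1 lies at chr4:43531519-43562691 on the minus strand, Clta at chr4:44004452-44032846 on the plus strand and Gne at chr4:44034075-44084177 on the minus strand. The stretch spans 1.03 Mb, with 5 of the genes on the plus and 4 on the minus strand. Several share bases with a gene on the other strand, and the library kit used does not mark strand, so reads from shared bases cannot be assigned by strand and the means of both genes of such a pair are uncertain. Tesk1 and Cd72 overlap by 1603 bases, 1423 of them exonic in both genes in GENCODE M21. Tln1 overlaps Creb3 by 360 bases and Ccdc107 overlaps Rmrp, the RNA of RNase MRP, by 159 bases.

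Because these genes were lower together, the bases ahead of their start sites were read from RefSeq on GRCm38.p6. All 9 genes matched, with 13 start sites in windows of 300 bases that run from 250 before to 50 after the start. The median GC content of the 13 windows was 60.7%, beside 52.7% for all 32851 windows of the table. The 100 bases before the start are printed for Unc13b (chr4:43058853-43058952, plus strand), Clta (chr4:44004343-44004442, plus strand) and Gne (chr4:44084178-44084277, minus strand), the genes at both ends of the stretch, whose upstream bases overlap no annotated exon. Capitals mark the SP1 letters GGGCGG and the NF-Y letters CCAAT on either strand.
Unc13b: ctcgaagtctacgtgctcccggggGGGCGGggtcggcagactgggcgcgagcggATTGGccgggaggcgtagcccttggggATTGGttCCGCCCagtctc
Clta: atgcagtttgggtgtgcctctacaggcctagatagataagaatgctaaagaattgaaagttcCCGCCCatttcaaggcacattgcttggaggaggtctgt
Gne: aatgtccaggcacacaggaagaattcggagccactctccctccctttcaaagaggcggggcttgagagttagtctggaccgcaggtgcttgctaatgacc
The Unc13b sequence holds both motifs, the Clta sequence holds the SP1 letters, and the Gne sequence holds neither.

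Over the full windows and both strands, GGGCGG was found in 5 of 13 (38.5%), beside 35.7% of all windows, and CCAAT also in 5 of 13 (38.5%), beside 37.4%. CATTCC, the letters bound by the YAP1 partner TEAD, were found in 1 window (7.69%), that of Tesk1, beside 14.7% of all. The TATA box letters TATAAA were found in 1 window (7.69%), that of Ccdc107, beside 13.6%. CTTTGAT, the letters bound by the CTNNB1 partners TCF and LEF, were found in 0 of 13 windows, beside 3.73% of all. A match is a description of letters and not a bound site, and no match says only that these letters are absent from these windows.

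Among the genes of membrane traffic, Unc13b had a mean of 9.34 in control liver and 6.06 in Scd2f/f TAL, against 2.12 in Scd2f/f;CC TAL. The order ran down through the 3 groups, and the Scd2f/f;CC mean was 35.0% of the Scd2f/f mean and 22.7% of the control mean, the lowest share of control among the 9 genes. Rusc2 had the same order, with means of 8.06, 6.04 and 2.85 for control liver, Scd2f/f TAL and Scd2f/f;CC TAL. Its Scd2f/f;CC mean was 47.2% of the Scd2f/f mean. Clta had means of 34.5, 39.0 and 15.8 in the same order of groups. Control liver and Scd2f/f TAL were close to each other for Clta, and Scd2f/f;CC TAL stood at 40.5% of Scd2f/f TAL.

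Among the genes of the actin cytoskeleton, Tesk1 had means of 5.09 in control liver and 6.38 in Scd2f/f TAL, against 3.14 in Scd2f/f;CC TAL. Tpm2 had means of 7.15, 10.2 and 5 in these groups. Tln1 had means of 56.3, 87.9 and 42.5. All 3 genes were highest in Scd2f/f TAL. They were lowest in Scd2f/f;CC TAL, where their means were 49.2% (Tesk1), 49.0% (Tpm2) and 48.4% (Tln1) of those in Scd2f/f TAL.

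Gne had a mean of 56.1 in control liver and 70.1 in Scd2f/f TAL, against 30.6 in Scd2f/f;CC TAL, so the last was 43.7% of the second. Ccdc107 had means of 22.8, 19.5 and 10.1, with Scd2f/f;CC TAL at 51.8% of Scd2f/f TAL. Cd72 had the lowest counts, with means of 0.998, 2.88 and 0.878. Cd72 was the gene whose control and Scd2f/f;CC means lay closest, with Scd2f/f TAL at 2.89 times control liver and Scd2f/f;CC TAL at 88.0% of control liver. Its mean over the 3 groups, 1.59, passed a minimum of 1 through Scd2f/f TAL alone. In 6 of the 9 genes the mean was highest in Scd2f/f TAL, and in the other 3, Unc13b, Rusc2 and Ccdc107, it was highest in control liver.

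**Figure D1:**
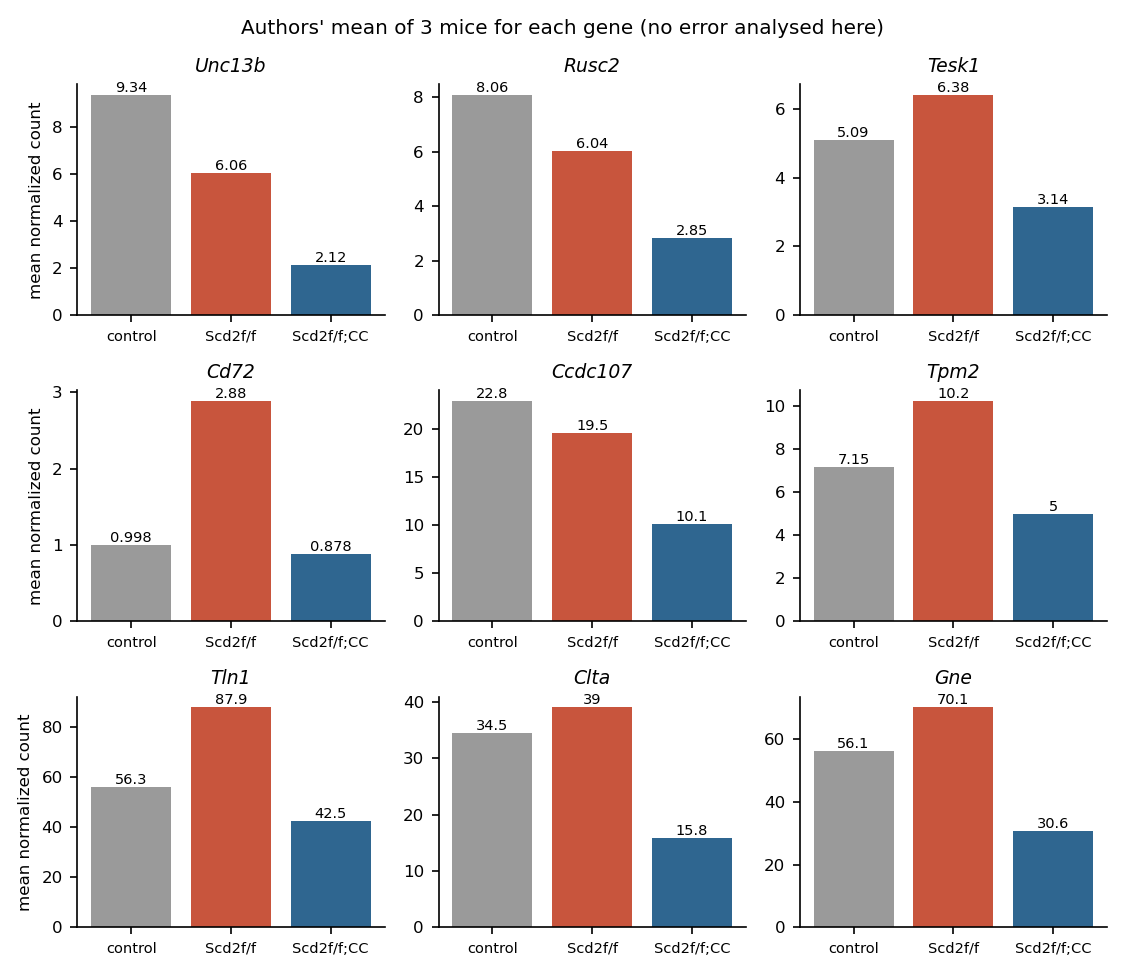
Authors' mean normalized count (y axis, from 0, own scale in each panel) of each of the 9 genes in control liver (grey), Scd2f/f TAL (red) and Scd2f/f;CC TAL (blue), with no error bars since single mice were not analysed. The blue bar is the lowest in all 9 panels, from 0.878 for Cd72 to 42.5 for Tln1, with the smallest gap to control for Cd72 (0.878 and 0.998).

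Set as log2 ratios of means, Scd2f/f;CC over Scd2f/f TAL, the 9 genes ran from -1.71 (Cd72) to -0.95 (Ccdc107), with a median of -1.08. The median of all 16755 genes was 0.00. Of the 9 genes, 8 were at least 2-fold lower in Scd2f/f;CC TAL, where 4.07% of all genes were past that fold, and 1.54% of the 11784 genes that average at least 1 over the 3 groups. All 9 were at least 1.5-fold lower, beside 9.82% of all genes. The genes were chosen on this ratio, so nothing is read from these counts.

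The ratio of means, Scd2f/f TAL over control liver, was uneven among the same genes. Its log2 value ran from -0.62 (Unc13b) to 1.53 (Cd72), with a median of 0.32, beside 0.04 for all genes. Only Cd72 was at least 2-fold higher in Scd2f/f TAL, 1 of 9, where 9.37% of all genes were past that fold. With Tln1 (log2 0.64), 2 of 9 were at least 1.5-fold higher, beside 17.2% of all genes. The SD over the 9 genes was 0.64 for this ratio and 0.26 for the ratio on which they were chosen. Both ratios share the Scd2f/f TAL mice, and the spread of the second is bounded by how the genes were chosen.

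Setting Scd2f/f;CC TAL over control liver leaves the Scd2f/f TAL mice out, but it uses the Scd2f/f;CC mice on which the genes were chosen. All 9 genes were lower than in control liver on this ratio, as were 45% of all genes, with log2 values from -2.14 (Unc13b) to -0.18 (Cd72) and a median of -0.87, beside 0.05 for all genes. At least 2-fold lower were 4 of 9, Unc13b (-2.14), Rusc2 (-1.50), Ccdc107 (-1.17) and Clta (-1.13), where 4.64% of all genes were past that fold. Gne (-0.87), Tesk1 (-0.70), Tpm2 (-0.52), Tln1 (-0.41) and Cd72 (-0.18) made up the rest. These groups differ both in Cre and in treatment, which cannot be told apart in this ratio.

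**Figure D2:**
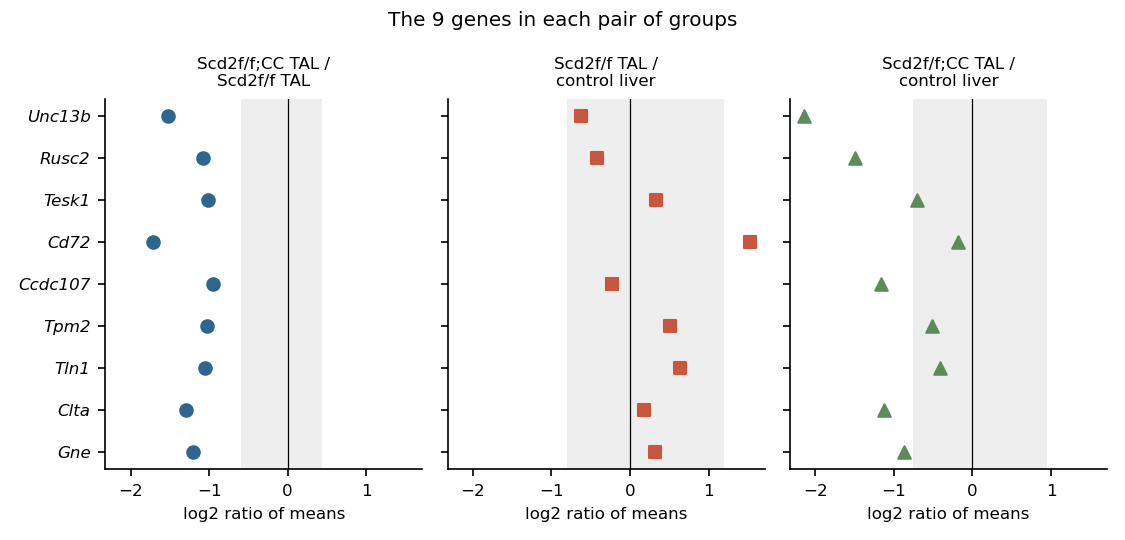
Log2 ratio of group means (x axis) of the 9 genes (rows) in the 3 pairs of groups, with a grey band from the 5th to the 95th percentile of the 11784 genes averaging at least 1. In the left panel, on which the genes were chosen, all 9 lie below the band, whose lower edge is -0.58, and in the middle panel Cd72 (1.53) is the one gene above the band, which ends at 1.18.

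The list of 9 does not hold every low gene of its stretch. GENCODE M21 places 34 protein-coding genes between Unc13b and Gne, of which 20 are in the table and 14 were not analysed here. With noncoding genes, 23 rows of the table fall in the stretch, so that 14 are outside the list. Of these 14, 12 were lower by any amount in Scd2f/f;CC TAL than in Scd2f/f TAL, where 49.6% of all genes were, and 3 were at least 2-fold lower, beside the 4.07% of all genes. Their median log2 ratio was -0.80. The 3 were Gba2, a glucosylceramidase outside the lysosome (log2 -1.01, from 3.96 to 1.96), Reck, a membrane-anchored inhibitor of matrix metalloproteases (-1.06, from 2.03 to 0.974), and Glipr2 (-1.92, from 1.30 to 0.343). These 3 and Atp8b5 had lower ratios than Ccdc107, the listed gene nearest to a ratio of 1. Of the 8 among the 14 that average at least 1, 2 were at least 2-fold lower, beside 1.54% of all such genes. The ends of the stretch were set by chosen low genes, so the shares of the 14 are a description and not a result.

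The neighbors of Tln1 had like values, and some share exonic bases on opposite strands. Creb3 shares 360 with Tln1 and 133 with Gba2, and Gba2 shares 159 with Rgp1. Reads from these bases cannot be assigned by strand, and their part in these values was not tested. Creb3, a transcription factor anchored in the endoplasmic reticulum, had means of 15.0 in Scd2f/f TAL against 8.15 in Scd2f/f;CC TAL (log2 -0.88). Rgp1 (from 13.0 to 7.47, log2 -0.80) and Hint2, a mitochondrial hydrolase (from 14.6 to 8.38, log2 -0.80), stood slightly nearer to 0. Npr2, a natriuretic peptide receptor with guanylyl cyclase activity, had means of 19.8 and 13.6 (log2 -0.54), the smallest difference among the 15 protein-coding genes of the stretch averaging at least 1.

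The remaining rows had low counts or were noncoding. Atp8b5 (log2 -0.96), Arhgef39 (-0.72), Fam221b (-0.87) and Tmem8b (-0.35) had means under 1 in every group, and Gm12473, antisense to Npr2, had a log2 ratio of -0.46. Both rows that were not lower were noncoding. Rmrp, which overlaps Ccdc107, had means of 1330 in control liver and 746 in Scd2f/f TAL, against 936 in Scd2f/f;CC TAL (log2 0.33 between the last pair), and the processed pseudogene Gm12481 had 2.45, 4.39 and 4.58 (log2 0.06). All 20 protein-coding rows of the stretch were lower in Scd2f/f;CC TAL, beside 49.6% of all genes, but 9 of the 20 are the genes chosen for this. Of the 11 that were at least 2-fold lower, beside 4.07% of all genes, 8 are chosen genes.

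Of the 5 rows nearest to Unc13b on the side before it, 3 had ratios near 1 and 2 had higher means in Scd2f/f;CC TAL. Fam214b, 0.0127 Mb away, had means of 4.19 in Scd2f/f TAL against 4.09 in Scd2f/f;CC TAL (log2 -0.03), Stoml2 had 18.1 and 17.2 (-0.07), and Pigo had 3.64 and 4.32 (0.25). Fancg, a gene of DNA crosslink repair, had 0.476 and 0.733 (0.62). Vcp, an abundant AAA ATPase gene, had 237 and 236 (-0.01). Farther out, the rows became small and mixed. Of the 18 rows within 1 Mb before Unc13b, 4 were at least 2-fold lower, beside 4.07% of all genes. All 4 were gene models without an established name, Gm21955 (from 2.08 to 1), Gm2564 (from 1.01 to 0.355), Gm10600 (from 0.296 to 0.148) and Gm13305 (from 0.146 to 0.0662). Ccl19 and Ccl21a, chemokine genes of a family with near-identical copies in this region, had log2 ratios of -0.75 and 0.24 at means under 1, and counts of such copies are uncertain.

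Over the 753 genes of chromosome 4 that lie outside the stretch and average at least 1, the median log2 ratio was 0.01. At least 2-fold lower were 12 of them, beside 1.54% of all genes averaging at least 1.

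**Figure D3:**
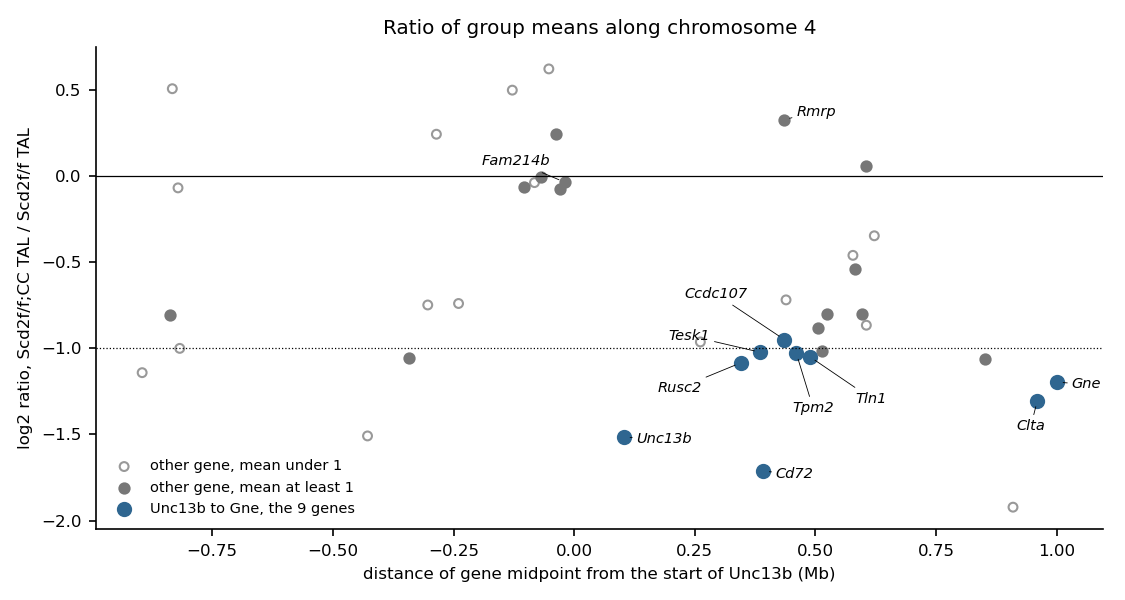
Log2 ratio of means, Scd2f/f;CC over Scd2f/f TAL (y axis) against the distance of each gene's midpoint from the start of Unc13b (x axis, Mb), for the 9 genes (blue) and all other rows of the table in the stretch or within 1 Mb before it (filled grey for a mean of at least 1, open for less). The dotted line marks a 2-fold lower mean. Fam214b lies at -0.03 and Unc13b at -1.52, a difference set in part by the choice of Unc13b for its low ratio.

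Genes that act with the 9, most of them elsewhere in the genome, were set beside them on the ratio of means, Scd2f/f;CC over Scd2f/f TAL. The 9 were chosen for a low value of this ratio, so their lower place beside these genes is not a result. Of all genes, 4.07% were at least 2-fold lower, and 1.54% of those averaging at least 1. A count of 0 in a short list is near that share, and nothing is read from it. Of 14 genes of the clathrin coat and of endocytosis, 0 were at least 2-fold lower and the median log2 ratio was -0.06. Cltb, the other light chain, had means of 24.4, 23.1 and 19.1 in control liver, Scd2f/f TAL and Scd2f/f;CC TAL (log2 -0.27 between the last pair). Cltc, the heavy chain, had 202, 229 and 227 (-0.01), beside -1.30 for Clta, which was chosen for its low ratio. Of 10 genes for sialic acid synthesis and transfer, 0 were at least 2-fold lower and the median was 0.03. Nans (-0.28), Nanp (0.01) and Cmas (-0.28), which encode the steps that follow GNE, lay nearer to 0 than Gne (-1.20).

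Of 19 genes of integrin adhesion, 1 was at least 2-fold lower, Fermt1 (from 0.461 to 0.194, log2 -1.25), and the median was -0.19. Tln2, the paralog of Tln1, had means of 6.63, 7.81 and 8.89 (log2 0.19 between the last pair), and the talin partner Vcl had 28.9, 27.6 and 24.8 (-0.15). Itgb2, the integrin chain of leukocytes, had 2.36, 14.1 and 9.29 (-0.60). For Unc13b, 11 of 12 listed genes of its family and of vesicle priming were found. None was at least 2-fold lower, Unc13a had a log2 ratio of 0.11 and Unc13d of -0.77 at means under 1, and Unc13c was not in the table. Of 10 genes with Rusc1, Tesk2 and the cofilin enzymes, 0 were at least 2-fold lower and the median was -0.03, with Rusc1 at -0.31, Tesk2 at 0.17 and the kinase genes Limk1 at -0.53 and Limk2 at 0.06.

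Contractile genes were uneven. Of 13 listed, 11 were lower by any amount, beside 49.6% of all genes, and 2 at least 2-fold, beside 4.07%. The 2 were Acta2, an actin of myofibroblasts, and Tagln. Acta2 had means of 1.27, 1.20 and 0.388 in control liver, Scd2f/f TAL and Scd2f/f;CC TAL (log2 -1.63 between the last pair). Tagln had 7.85, 3.79 and 1.75 (-1.11). The median of the 13 was -0.41, the value of Cnn1 at means of 0.0465 and 0.0349. Only 8 of the 13 averaged at least 1, among them Cald1 (-0.15), Mylk (0.00) and Myh11 (0.53). Tpm1 had means of 20.2, 17.9 and 9.95 (log2 -0.85 between the last pair), and Tpm4 (-0.43) and Tpm3 (-0.29) were also lower. The Tpm2 value of -1.03 lay beyond those of these paralogs and nearest to that of Tpm1. Tpm2 differed from Tpm1 in the ratio of means, Scd2f/f TAL over control liver, 0.51 against -0.17 on the log2 scale. All 9 markers of HSC and portal fibroblasts, of which Des is also in the contractile list, were lower in Scd2f/f;CC TAL than in Scd2f/f TAL. Their log2 ratios ran from -2.12 (Col1a1) to -0.25 (Lrat, from 19 to 16). At least 2-fold lower were 5 of them, beside 4.07% of all genes. Their summed mean was 128 in control liver and 253 in Scd2f/f TAL, against 124 in Scd2f/f;CC TAL. Dcn was the largest part of it, at 70.3, 118 and 67.2. In Scd2f/f TAL over control liver the 2 lists differed, with a median log2 ratio of 0.75 for these markers and -0.17 for the contractile genes. The part of these markers in the values of Tpm2, or of any other gene here, was not tested.

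Of 12 genes listed around Cd72 and the B cell receptor, 10 were found. Of these, 4 had a lower mean in Scd2f/f;CC TAL than in Scd2f/f TAL, as did 49.6% of all genes, and the other 6 had a higher one. The B cell markers Cd79a, Cd79b and Ms4a1 had log2 ratios of 0.10, 0.17 and 0.04, with means under 1 in every group. Cd79a, for example, had means of 0.211 in control liver and 0.53 in Scd2f/f TAL, against 0.569 in Scd2f/f;CC TAL. Of the 10, 1 was at least 2-fold lower, beside 4.07% of all genes. This was Sema4d, which encodes the CD72 ligand (from 2.62 to 1.01, log2 -1.38). Cd22, another inhibitory coreceptor of B cells, had means of 0.368, 1.43 and 0.885 (-0.69 between the last pair), and Cd37 had 0.238, 0.988 and 0.697 (-0.50). Ptpn6, which encodes the phosphatase that CD72 recruits, had means of 5.16, 14.3 and 12.2 (-0.23 between the last pair). Macrophages can also express CD72, and the summed mean of 6 macrophage markers was 75.4, 288 and 258. Between the last pair their log2 ratios ran from -0.65 (Cd68, from 8.87 to 5.66) to 0.01 (Clec4f, from 71.2 to 71.7). T cell markers stood at a summed 0.997, 3.55 and 2.11, though Cd4 went from 0.817 in Scd2f/f TAL to 0.883 in Scd2f/f;CC TAL. Endothelial markers stood at 91.5, 114 and 118, though Lyve1 went from 6.6 to 3.44 between the last pair. Cholangiocyte markers stood at 58.7, 53.1 and 19.1, most of it Spp1 (52.3, 45.1 and 14.8). All 5 were lower in Scd2f/f;CC TAL than in Scd2f/f TAL, beside 49.6% of all genes. At least 2-fold lower were 4 of the 5, beside 4.07% of all genes. The 4 were Spp1 (log2 -1.61), Epcam (-1.86), Krt19 (-1.88) and Krt7 (-2.29), with Krt19 and Krt7 at means under 1 in every group. Sox9 had 3, 5.03 and 3.52 (-0.51 between the last pair). A sum follows its most abundant gene. The part of these cell types in the values of Cd72 was not tested.

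**Figure D4:**
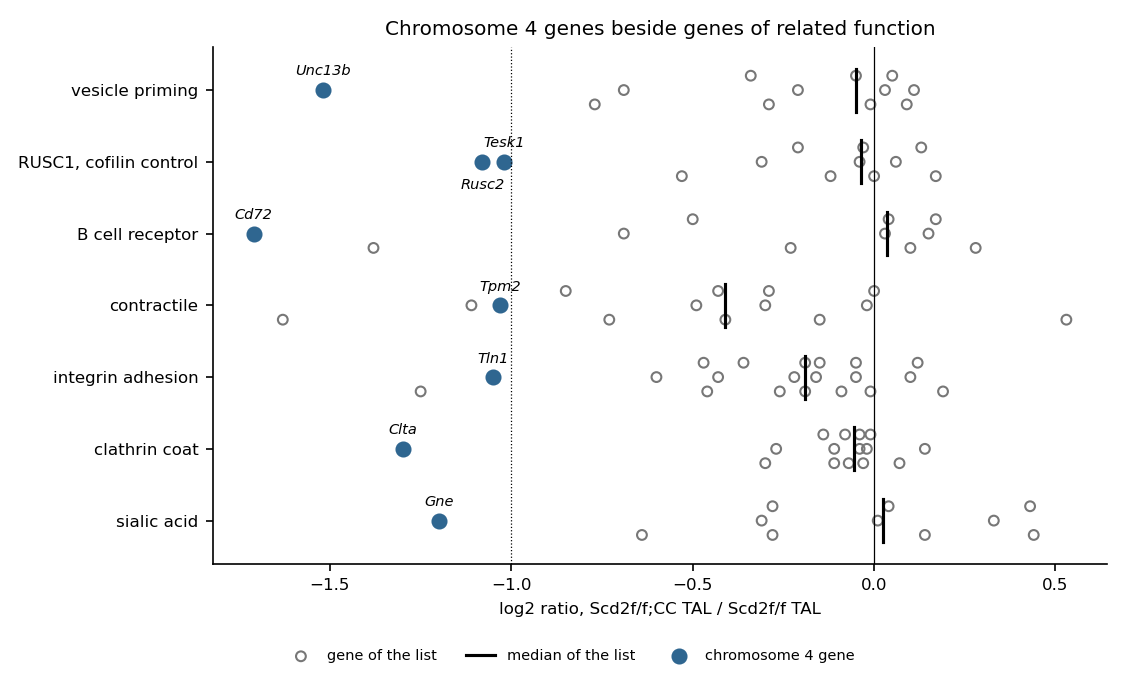
Log2 ratio of means, Scd2f/f;CC over Scd2f/f TAL (x axis) of the chromosome 4 genes other than Ccdc107 (blue), each in the row of the genes that act with it (open circles), with the median of each list as a bar and a dotted line at a 2-fold lower mean. Blue points lie left of every open circle in 5 of the 7 rows. In the contractile row Acta2 (-1.63) and Tagln (-1.11) lie farther left, and in the integrin row Fermt1 (-1.25) does. The blue genes were chosen for a low value of this ratio, so their place to the left is not a result.

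Likeness was also measured over the 3 group means, as the distance of each gene's pair of log2 ratios (Scd2f/f;CC over Scd2f/f TAL, and Scd2f/f TAL over control liver) from the median pair of the 9 genes, -1.08 and 0.32. Among 11775 other genes averaging at least 1, the nearest were Gm28037 on chromosome 16 (distance 0.028), Reck (0.028), Ehd2 (0.029), Cxcl14 (0.053) and Cygb (0.060). Reck is the one of these 5 in the stretch. Cygb, the cytoglobin gene of stellate cells, had means of 3.96 in control liver and 4.94 in Scd2f/f TAL, against 2.43 in Scd2f/f;CC TAL. With 3 means per gene, near matches are easily found, and no shared control is read from them.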

How the data were processed

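Total RNA of 9 livers was sequenced after polyA selection with the TruSeq RNA v2 kit. The authors quantified reads to genes of Gencode M3 with the Partek E/M method, normalized counts to the upper quartile of all samples and deposited, per gene, a signal for each group, the least-squares mean of its normalized counts. The submitters' processing notes name Partek 6, STAR 2.6.1 and mm10. The deposited table also holds the authors' p-values, FDR, ratios and fold changes for 2 comparisons, none of which was used. Groups come from the sample titles. Ratios are quotients of means, with no pseudocount and, with 1 mean per group, no test. Past a fold of 2 or 1.5 counts as lower or higher. Genes and lists were chosen with earlier results of these data known. Named are the 9 genes, other rows of the stretch, rows near it, list genes past a fold of 2 or of a member's family, and the 5 nearest patterns. Other list genes, more distant rows and markers were named after their values were seen. Gene ends in the table are 1 base past the last base and were reduced by 1. After this, all 9 genes matched GENCODE M21 on GRCm38 at both ends. Rows beyond Gne and 1 B cell marker are not reported here. Planned comparisons of protein sequences were not made. The ratio and the count past a fold were tested on the Scd2f/f TAL means with planted changes, and the other steps were not tested in this way. Tools were Python 3.11.15, NumPy 2.4.6, pandas 2.3.3 and Matplotlib 3.10.9. Alternatives were pseudocounts of 0.1 and 1, centring, a minimum mean of 10 and folds of 1.5 and 2.5.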

Additional observations from a re-analysis of the deposited data

How the results depend on the processing

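No alternative turned the direction of a median, or of a ratio of any of the 9 genes, among pseudocounts of 0.1 and 1, subtraction of the median over genes averaging 1 or more, and a minimum mean of 10. The count of genes at least 2-fold lower in Scd2f/f;CC TAL than in Scd2f/f TAL, 8 of 9, was 5 with a pseudocount of 1, 3 of 4 with a mean of at least 10, and 2 with a fold of 2.5. The count at least 2-fold higher in Scd2f/f TAL than in control liver, 1 of 9, was 0 with a pseudocount of 1, 0 of 4 with a mean of at least 10, and 2 with a fold of 1.5. Of the single ratios, 1 moved by over 1.5 times, Cd72, from -1.71 to -1.05 on the log2 scale with a pseudocount of 1. No paired analysis was possible because the table holds means of groups and no values of single mice, and for the same reason no replicate could be left out. Depth is unknown, so genes with means near or under 1 carry an error that cannot be given.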
